A study of Mus musculus with 80 samples.

Results

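The genes described here are 32 genes of G2 and mitosis, chosen by name from what is known of cell division. They were not picked by their values, but earlier results of these data were known when they were chosen. All 32 were found among the 27128 gene rows of each deposited table. Kif20b stands there under its older symbol Mphosph1, and Cdc2a is the older symbol of Cdk1. The series profiled male germ cells of mouse testes at postnatal day 5.5. Every group carried the background written B6;CBA-Tg(Pou5f1-EGFP)2Mnn/J, a transgene that puts green fluorescent protein (GFP) under regulatory sequence of Pou5f1 (Oct4), and GFP positive cells were sorted. Of the groups used here, the CD87 positive and CD87 negative cells gave 2 sorted libraries each. CD87 is the urokinase receptor, the product of Plaur, which was at 3.53 and 8.92 TPM in the CD87 positive against 0.46 and 0.97 TPM in the CD87 negative libraries. The other group was 71 single GFP positive, KIT negative cells, which the submitters placed in clusters I to IV of 9, 32, 24 and 6 cells. No animal or culture is named for any library, so a p-value here reflects how far these libraries scatter, and that scatter may be technical. The 71 cells count as 1 sample.

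Cells pass from DNA synthesis through G2 into mitosis when cyclin dependent kinase 1 (Cdk1), bound to cyclins A and B, becomes active. Polo and Aurora kinases then build the spindle, kinetochores attach chromosomes to it, and a checkpoint holds the anaphase promoting complex until attachment is complete. Transcripts of many of these genes accumulate in G2 and are lost after division, so their levels are widely used as a readout of cycling cells. In the testis shortly after birth, the germ cells that were held in arrest resume division and give rise to spermatogonia.

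The 71 cells held 182163 to 6802790 expected counts each (median 1585930) and a gene was called detected from an expected count of 1 upward, which gave 6962 to 13497 genes a cell. Of 10 germ cell markers, 8 were detected in 61 or more cells (Ddx4, Dazl, Sall4, Zbtb16 and Mael in all 71), while Dppa3 was found in 12 and Nanos2 in 13; their summed level was 2170 to 6502 CPM (counts scaled to a common total of each cell). Of 14 macrophage and leukocyte markers, 5 were in no cell, C1qa, C1qb and C1qc among them, but Fcer1g was in 24, Cd68 and Apoe in 17 each and Csf1r in 16; the sum was 0 to 146 CPM (median 3.53). Sertoli markers (12) summed to a median of 8.74 and a highest value of 367 CPM, and peritubular and stromal markers (8) to 9.61 and 390.0 CPM. Amh and Col3a1 were in no cell, whereas Sox9 was in 65 and Pdgfra in 52, at medians of 4.5998 and 2.07 CPM. In the sorted libraries, given as TPM (transcript abundance scaled for gene length and library total), depth is unknown. The deposited columns summed to 584064 and 635203 TPM in the CD87 positive and 580440 and 610573 TPM in the CD87 negative libraries. They therefore did not share a common total. The most abundant row, LOC672857, took 24.2% and 23.9% of the CD87 positive and 31.2% and 24.9% of the CD87 negative sums. The CD87 positive libraries listed 16267 and 12063 genes above 0, against 15579 and 15147 in the CD87 negative libraries. CD87 positive library 2 therefore had the shortest list of genes of the 4. Within the CD87 positive pair, log2 differences between the libraries had a standard deviation of 1.09, and within the CD87 negative pair one of 0.631.

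The first question was how these genes varied from cell to cell in the KIT negative population. Every cell carried most of the set. The number of the 32 genes at 10 CPM or more ranged from 19 to 32 per cell, with a median of 29, and 10 cells had all 32. Together the genes took 0.241% to 2.33% of a cell's counts (median 0.641%); the highest share was that of cell 7, the shallowest of the 71 (182163 counts, 6962 genes). CPM is not adjusted for gene length, so levels below are set against each other only within a gene. Shares of cells carry exact Clopper-Pearson 95% intervals, which cover counting error only, since PCR reads were counted without molecular identifiers.

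Among the kinases and cyclins of mitotic entry, Ccnb1 (cyclin B1, the main partner of Cdk1) was detected in all 71 cells. It lay between 3.44 and 2230 CPM (median 492). Cdc2a, the kinase itself, ranged from 0 to 472 CPM (median 94.7) and was detected in 67 cells. Both the cyclin and its kinase were therefore present in nearly every cell, at levels that spread widely. Ccna2 (cyclin A2) and Cks2, a small subunit of cyclin dependent kinases, were also detected in all 71 cells, and Ccnb2 (cyclin B2) in 68. Cdc25c, the phosphatase that activates Cdk1, was detected in 68 cells, between 0 and 491 CPM (median 49.9).

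The 2 kinases of spindle assembly were the least often detected of the set. Plk1 (polo-like kinase 1) was found in 54 cells (76.1%, interval 64.5 to 85.4) and reached 10 CPM in 41. Its lowest, median and highest levels were 0, 17.1 and 453 CPM. Aurka (Aurora A) was found in 58 cells (81.7%, interval 70.7 to 89.9) and reached 10 CPM in 43, with a lowest, median and highest level of 0, 27.3 and 448 CPM. These genes were spread over the whole range rather than uniformly present: the lower and upper quartiles were 1.69 and 103 CPM for Plk1 and 1.58 and 129 CPM for Aurka. At 10 CPM or more, 32 cells had both kinases, 9 had Plk1 without Aurka, 11 had Aurka without Plk1 and 19 had neither. With every cell thinned to 182150 counts (the rounded total of the shallowest), Plk1 and Aurka were each detected in 51 cells.

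Of the chromosomal passenger genes, whose complex corrects faulty spindle attachments, Birc5 (survivin) was the steadier. It was at 10 CPM or more in all 71 cells, between 29.3 and 459 CPM (median 139), with a standard deviation of 0.59 on the log2(CPM + 1) scale. Aurkb (Aurora B) ranged from 0.40 to 458 CPM (median 63.3), with a standard deviation of 2.09. The 2 partners of 1 complex thus differed in how much they varied.

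The kinetochore and checkpoint genes were detected in 68 to 71 cells each. Cenpf, a large kinetochore protein, was the most even of them, at 162 to 3279 CPM (median 819). Cenpe, the kinetochore motor, ran from 7.19 to 8266 CPM (median 486), and its highest value lay in cell 7 of cluster IV, the shallowest cell. Ndc80 and Nuf2 are both subunits of the complex that grips microtubules. At 10 CPM or more, which is not adjusted for gene length, Ndc80 was found in 68 cells and Nuf2 in 56. The checkpoint kinases Bub1 and Ttk had medians of 141 and 83.2 CPM. Cenpa, the histone variant that marks centromeres, had a median of 97.2 CPM and reached 10 CPM in 70 cells.

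Among spindle genes and motors, Kif11 (the motor that pushes spindle poles apart), Kif20b, Hmmr and Ckap2 were detected in all 71 cells. Tpx2, which activates Aurora A on the spindle, was detected in 69 cells, between 0 and 903 CPM (median 156). The microtubule binding Nusap1 was detected in 62 cells (87.3%, interval 77.3 to 94), with a median of 38.7 CPM. Kif2c, a microtubule depolymerase, and Tacc3, which stabilises spindle fibres, were each detected in 69 cells, with medians of 160 and 135 CPM. Tpx2 and Nusap1 had standard deviations of 2.13 and 2.55 on the log2(CPM + 1) scale.

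Cdc20, which switches on the anaphase promoting complex, was detected in 63 cells and ranged from 0 to 399 CPM (median 42.6). Ube2c, the ubiquitin conjugating enzyme of that complex, was detected in all 71 cells between 5.16 and 306 CPM (median 66.1). The activator was thus not detected in 8 cells in which the enzyme was counted. Cdca3 was detected in 66 cells (median 22.1 CPM). Anln (anillin, of the cleavage furrow) was detected in all 71 cells, between 0.52 and 630 CPM (median 133).

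Hmgb2 was, with Birc5, the most uniform of the 32. This gene of a chromatin protein stayed between 142 and 770 CPM (median 440), with a standard deviation of 0.59 on the log2(CPM + 1) scale. Top2a, the topoisomerase that untangles sister DNA, ranged from 16.3 to 1924 CPM (median 530). Mki67, which encodes the Ki-67 proliferation antigen, ranged from 1.41 to 2643 CPM (median 325), with a standard deviation of 2.03.

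The genes varied together, though loosely. Over the 496 pairs of the 32 genes, the median Pearson r across the 71 cells was 0.22, beside 0.02 over all pairs of the 12615 genes detected in at least 20 cells. Of the member pairs, 92.9% had an r above 0, against 55.5% of all pairs. An r of 0.3 or more was found for 31.7% of member pairs and 1.31% of all pairs. The genes behind all pairs were not matched to the members in level or in cells detected. The closest pair was Plk1 with Aurka (r = 0.61), followed by Ccnb1 with Plk1 (r = 0.56) and Plk1 with Cenpe (r = 0.56). Pairs within a role (84, median r 0.23) and between roles (412, median r 0.22) had nearly the same median. All these values come from cells of 1 sample, which differ in total and in genes detected, and they are given as a description.

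A G2 and M score was taken for each cell as the mean log2(CPM + 1) of the 32 genes. Set against the score of the other 31 genes, Plk1 (r = 0.71), Ccnb1 (r = 0.71), Aurka (r = 0.67) and Tpx2 (r = 0.63) followed the rest most closely. The top 4 thus included Plk1 and Aurka, the least often detected of the set. Other genes of mitotic entry ranked lower, with Ccna2 at 0.43, Cks2 at 0.38, Cdc2a at 0.37 and Ccnb2 at 0.32, as did the spindle genes Kif11 (0.39) and Ckap2 (0.30). Nusap1 (r = 0.56), Kif20b (r = 0.54), Birc5 (r = 0.53), Top2a (r = 0.53) and Mki67 (r = 0.52) came next. At the low end stood Aurkb (r = 0.10), Cdc25c (r = 0.22), Nuf2 (r = 0.23) and Hmgb2 (r = 0.26). The lowest pairwise value was that of Aurkb with Cenpf (r = -0.33). Thinning to 1 depth moved Birc5 to an r of 0.37, while Ccnb1 stood at 0.73 and Plk1 at 0.69.

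**Figure D1:**
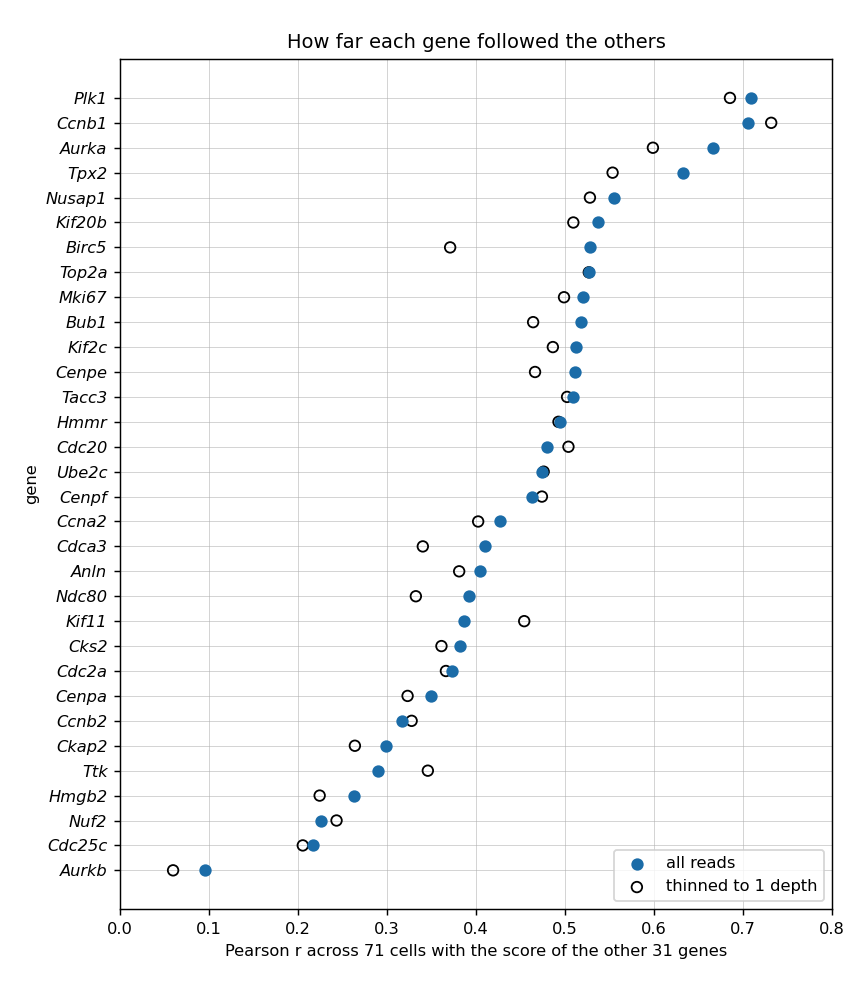
Pearson r of each of the 32 genes with the score of the other 31 across 71 cells (horizontal axis); filled points use all reads and open points use cells thinned to 1 depth. Plk1, Ccnb1 and Aurka lie above 0.6 with all reads, and Aurkb lies at 0.10.

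Because these genes varied together, their promoters were read in a RefSeq table of build GRCm38.p6 that gives 250 bases before and 50 after each gene's start. It held 28 of the 32 genes; Ccna2, Cdc25c, Aurkb and Tpx2 had no entry. The motifs searched were CCAAT, the letters bound by NF-Y, and the cell cycle homology region (CHR) as TTTGAA or TTCGAA, the letters bound by the DREAM and MuvB complexes. Both were searched on both strands, so ATTGG and TTCAAA also counted, and TTCGAA reads the same on both. The promoters below are those of the 3 genes nearest to the score (Ccnb1, Plk1, Aurka), of 2 genes with many matches (Top2a, Hmmr) and of Nuf2, near the low end. They were picked, so they do not show whether matches went with r. Capitals mark every match, each sequence runs 5′ to 3′ on the gene's strand, and the last 50 letters lie after the start.
Ccnb1 (chr13:100786437-100786736, minus strand): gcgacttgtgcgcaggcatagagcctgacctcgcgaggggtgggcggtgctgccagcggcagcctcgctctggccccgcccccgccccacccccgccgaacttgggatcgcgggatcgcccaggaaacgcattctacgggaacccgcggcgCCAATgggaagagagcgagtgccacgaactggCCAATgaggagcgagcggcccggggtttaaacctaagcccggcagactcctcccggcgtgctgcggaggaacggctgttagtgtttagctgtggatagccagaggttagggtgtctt
Plk1 (chr7:122159185-122159484, plus strand): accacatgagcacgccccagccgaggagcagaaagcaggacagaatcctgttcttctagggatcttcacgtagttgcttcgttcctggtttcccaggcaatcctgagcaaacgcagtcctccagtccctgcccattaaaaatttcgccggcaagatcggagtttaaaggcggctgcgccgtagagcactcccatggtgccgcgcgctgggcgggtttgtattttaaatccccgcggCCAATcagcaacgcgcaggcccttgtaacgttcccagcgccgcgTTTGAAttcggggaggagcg
Aurka (chr2:172370521-172370820, minus strand): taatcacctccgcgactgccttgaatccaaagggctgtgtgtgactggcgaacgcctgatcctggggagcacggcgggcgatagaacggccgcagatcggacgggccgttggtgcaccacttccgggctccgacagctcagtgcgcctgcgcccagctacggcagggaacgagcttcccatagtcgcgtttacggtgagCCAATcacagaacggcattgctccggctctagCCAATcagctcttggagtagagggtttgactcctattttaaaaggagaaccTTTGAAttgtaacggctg
Top2a (chr11:99024140-99024439, minus strand): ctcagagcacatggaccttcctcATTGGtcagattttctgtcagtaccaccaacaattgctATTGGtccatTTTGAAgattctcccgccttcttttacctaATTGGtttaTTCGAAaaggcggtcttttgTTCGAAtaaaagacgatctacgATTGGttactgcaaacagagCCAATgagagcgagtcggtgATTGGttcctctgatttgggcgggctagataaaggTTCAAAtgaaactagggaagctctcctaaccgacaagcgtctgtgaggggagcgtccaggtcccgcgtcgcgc
Hmmr (chr11:40733388-40733687, minus strand): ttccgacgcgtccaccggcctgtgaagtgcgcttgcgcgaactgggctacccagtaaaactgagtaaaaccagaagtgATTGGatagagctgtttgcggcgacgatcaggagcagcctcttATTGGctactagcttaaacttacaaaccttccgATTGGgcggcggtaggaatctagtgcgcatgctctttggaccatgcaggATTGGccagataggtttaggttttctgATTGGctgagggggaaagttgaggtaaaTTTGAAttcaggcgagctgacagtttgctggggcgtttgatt
Nuf2 (chr1:169531415-169531714, minus strand): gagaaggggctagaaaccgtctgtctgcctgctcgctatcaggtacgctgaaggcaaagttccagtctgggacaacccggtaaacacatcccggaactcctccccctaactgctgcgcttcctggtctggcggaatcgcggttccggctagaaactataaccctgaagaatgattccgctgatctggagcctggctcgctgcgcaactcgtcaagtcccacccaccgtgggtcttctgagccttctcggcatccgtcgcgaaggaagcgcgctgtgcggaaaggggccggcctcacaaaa

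In these windows Plk1 held 1 CCAAT and 1 CHR match, and Aurka held 2 and 1. Ccnb1 held 2 CCAAT matches, 32 bases apart, and no CHR letters. Top2a held 6 CCAAT and 4 CHR matches, Hmmr 5 and 1, and Nuf2 had neither. In 12 of the 28 member promoters (42.9%) CHR letters began after the start, against 2.46% of all promoters. Counted from 1 at the start, they began at base 31 in Plk1, 33 in Aurka, 31 in Cdca3, 30 in Ndc80, 17 in Cenpa and 9 in Hmmr.

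Over the 28 promoters, CHR letters were present in 21 (75%, exact interval 55.1 to 89.3), against 19.2% of the 32851 promoters in the table. CCAAT was present in 20 (71.4%, interval 51.3 to 86.8), against 37.4% of all promoters. Both motifs together stood in 17 (60.7%, interval 40.6 to 78.5), against 7.52%. The kinase Cdc2a, the checkpoint genes Bub1 and Ttk, and the exit genes Cdc20, Ube2c and Cdca3 were among the 17. Birc5, Nuf2, Nusap1 and Tacc3 had neither motif, and their r with the score of the other genes was 0.53, 0.23, 0.56 and 0.51. Hmgb2 (r = 0.26) held 4 CCAAT and 2 CHR matches, and Ttk (r = 0.29) held 2 and 1. Whether matches went with r was not tested. The member promoters were richer in G and C (median 60.2%) than all promoters (52.7%). A match is only a run of letters, and its absence says no more than that these letters are not in the window.

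Whether the cells form separate classes was not tested, and the score was spread without a wide gap above the lowest cell. It ran from 4.11 to 8.35 (median 6.63), and apart from the lowest cell the widest gap between neighbouring cells was 0.25. The lowest cell, number 63 of cluster IV, stood 0.90 below the next. It had 0 CPM of Plk1, Cdc2a and Tpx2 and 15.6 CPM of Ccnb1, yet 648 CPM of Cenpf and 133 CPM of Top2a. The highest, number 9 of the same cluster, had 210 CPM of Plk1, 472 CPM of Cdc2a, 538 CPM of Tpx2, 2230 CPM of Ccnb1, 1916 CPM of Cenpf and 1698 CPM of Top2a. Cluster IV, with only 6 cells, therefore held both ends of the range. Cell 9 and cell 7, also of cluster IV, each carried the highest value of 7 of the 32 genes. Cell 7 was also the lowest of the 71 in total counts and in genes detected, and the part of its depth in these values was not tested. The score had an r of -0.07 with the log10 of a cell's total and of 0.24 with its number of genes, and the thinned score had an r of 0.99 with the unthinned one.

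A share of cells in mitosis could not be read from a count of detected genes. A cell was to be called above the cut when at least 16 of the 32 genes reached 10 CPM. All 71 cells passed (100%, interval 94.9 to 100), in each of the 4 clusters, and the cell with the fewest genes at that level still had 19. Splitting the score into 2 groups by 2-means put the boundary at 6.47, with 39 cells above it (54.9%, interval 42.7 to 66.8) and 14 of the 71 cells within 0.25 of it. By cluster the shares above it were 2 of 9 cells in I, 26 of 32 in II, 9 of 24 in III and 2 of 6 in IV. A cut on Plk1 and Aurka both at 10 CPM or more, chosen after the data were seen, was passed by 32 cells: 2 of 9 in I, 20 of 32 in II, 7 of 24 in III and 3 of 6 in IV. Each of these is a range of a graded measure and not a count of dividing cells.

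Across the deposited clusters, the score was highest in cluster II. Clusters I to IV had median scores of 6.04, 6.89, 6.19 and 6.25. The middle range, from the lower to the upper quartile, was 5.42 to 6.39 for cluster I, 6.61 to 7.32 for II, 5.74 to 7.18 for III and 5.56 to 7.51 for IV. These middle ranges of clusters I and II did not overlap. From lowest to highest cell, the 4 clusters ran from 5.05 to 6.65, 5.48 to 8.1999, 5.02 to 8.04 and 4.11 to 8.35 in order, and all overlapped. The clusters were made from the same cells, with these genes among those measured, so their differences are a description with no test. After thinning the medians were 5.67, 6.89, 6.01 and 6.15 in clusters I to IV. The median number of genes detected per cell was 9730, 10893.5, 10255 and 8805.5 in the same order. Cluster II was thus highest in that number as well, and its part in the scores was not tested.

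**Figure D2:**
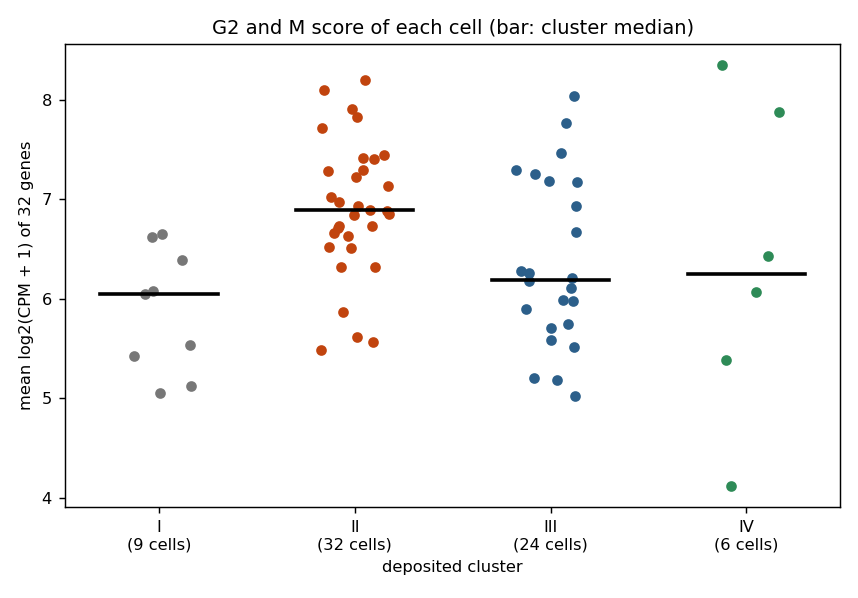
G2 and M score of each of the 71 cells, as mean log2(CPM + 1) of the 32 genes (vertical axis), by deposited cluster; each point is a cell and the bar is the cluster median. Cluster II has the highest median (6.89), and cluster IV holds both the highest cell (8.35) and the lowest (4.11).

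In cluster II, 30 of the 32 genes had a higher mean log2(CPM + 1) than in the other cells, with a median difference of 0.61, but 74.4% of all 12615 genes were also higher there (median 0.25). The count in cluster II is therefore to be read against a general upward shift. In cluster I, 7 of the 32 were higher than in other cells and 25 lower (median -0.80), while 35.7% of all genes were higher (median -0.22). In cluster III, 5 were higher and 27 lower (median -0.29), against 45.8% of all genes higher (median -0.04). In cluster IV, 14 were higher and 18 lower (median -0.04), against 33.5% of all genes higher (median -0.33).

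Among the roles with more than 1 gene, the entry kinases and cyclins had the widest span between clusters. Their median difference from the other cells was -1.29 in cluster I and 0.81 in cluster II. Median Ccnb1 was 153, 565, 395 and 544 CPM in clusters I to IV. Plk1 had medians of 1.7, 36.9, 4.0 and 26.2 CPM, and Aurka of 0.7, 42.2, 11.4 and 39.9 CPM, in the same order. Both kinases were thus low in I and III and higher in II and IV. After thinning, Plk1 was found in 5 cells of cluster I (9 cells), 29 of II (32), 13 of III (24) and 4 of IV (6). Nuf2, with a median of 6.0 CPM in cluster I and 55.4, 63.3 and 68.2 CPM in II, III and IV, was lowest in cluster I. Ckap2 had its highest median there, with 210 CPM in I and 108, 93.2 and 187 CPM in II, III and IV. Cenpa, too, had its highest median in cluster I, at 117 CPM.

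Over 36 genes of DNA replication, the S phase score had an r of 0.03 with it across the 71 cells and of -0.12 without cell 63, which was lowest in both scores. Over 59 other genes of G2 and mitosis, outside the 32, the score had an r of 0.79 with the members' score (0.77 without cell 63). That second score had an r of 0.32 with the S phase score, and of 0.19 without cell 63, so the members and the other G2 and mitosis genes gave different values here. In cluster IV, 29 of 36 S phase genes were lower than in other cells (80.6%, median difference -1.13), against 66.5% of all 12615 genes (median -0.33), while the 32 G2 and mitosis genes had a median difference of -0.04. The cell with the lowest G2 and M score in cluster III, number 20, had an S phase score of 7.76, whereas the cell with the highest score of all, number 9, had 5.82. The median S phase scores of clusters I to IV were 6.44, 6.83, 6.93 and 5.66.

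**Figure D3:**
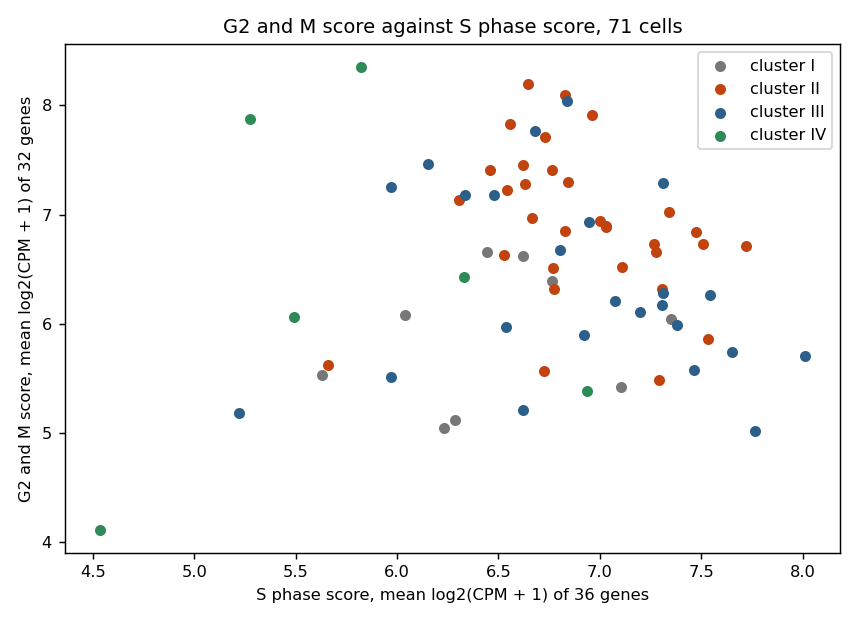
G2 and M score (vertical axis, mean log2(CPM + 1) of 32 genes) against S phase score (horizontal axis, mean log2(CPM + 1) of 36 genes) for 71 cells, coloured by deposited cluster. Pearson r is 0.03 over all cells, the cell at the lower left is number 63, and most cells of cluster IV lie at low S phase scores.

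Among 12583 other genes detected in at least 20 cells, the 15 most like the score were led by Arl6ip1 (r = 0.63), whose product shapes the endoplasmic reticulum. Next came EG434175 (r = 0.63), whose number is the gene ID that the RefSeq table gives to Ccnb1-ps, a transcribed pseudogene of cyclin B1. Its r with Ccnb1 itself was 0.71, at a median of 25.7 CPM, and reads shared between the copies cannot be told apart from transcripts of the pseudogene. Adding its counts to Ccnb1 left the r of Ccnb1 with the other 31 genes at 0.71. The row that RefSeq lists as Ccnb2-ps was not like Ccnb2 (r = -0.05).

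Of the 15, 4 were in the list of other G2 and mitosis genes: Prc1, which bundles the central spindle (r = 0.50), Kif20a, a motor of cytokinesis (r = 0.49), Ckap2l (r = 0.49), and Racgap1, of the central spindle complex (r = 0.48). The others were LOC100043906 (listed as Gm10184, r = 0.54), Tacstd1 (Epcam, r = 0.50), D530008I22 (r = 0.49), Arhgap19 (r = 0.48), EG621352 (Gm6215, r = 0.48), Mbtps2 (r = 0.47), LOC100040479 (r = 0.47), 2310007D09Rik (Fam83d, r = 0.47) and Xlr4c (r = 0.47). Some of these sat at low counts: D530008I22, with a median of 4.61 CPM, fell to an r of 0.11 after thinning. The 5 least like the score were LOC100041277 (r = -0.43), LOC100040633 (Rpsa-ps10, r = -0.43), Bri3 (r = -0.42), Rpsa (r = -0.41) and Mtap1s (Map1s, r = -0.41). Rpsa encodes a ribosomal protein, and the Rpsa row and its pseudogene row are again near copies. Thinning changed the r of LOC100041277 to -0.14.

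Lists of related genes differed in how they followed the score. Of the other G2 and mitosis genes, 54 of 57 had an r above 0 (median 0.25), and of the anaphase promoting complex 11 of 14 (median 0.09). For the transcription regulators of the programme, such as Foxm1, Mybl2 and the NF-Y subunits, 7 of 16 were above 0 (median -0.01). Of the S phase genes, 21 of 36 were above 0 (median 0.03), and of the cell cycle inhibitors 10 of 13 (median 0.12). Over all 12583 genes 65.1% were above 0 (median 0.05), so the shares were 94.7% for the other G2 and mitosis genes, well above it, 78.6% and 76.9% for the anaphase promoting complex and the inhibitors, and 58.3% and 43.75% for the S phase genes and the regulators, below it.

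The second comparison was between sorted CD87 positive and CD87 negative germ cells. None of the 32 genes passed the test (limma on log2(TPM + 1), Benjamini-Hochberg adjusted p of at least 0.863 for each), where 0.0236% of the 12715 genes tested did. All 32 passed the filter on low values (1 TPM or more in 2 or more libraries). At an unadjusted p under 0.05 the count was also 0 of 32, against 3.37% of all genes higher and 1.58% lower. That count depended on the fit: it was 9 of 32 (28.1%, against 9.41% of all genes) with the replicate number as a block, and 10 of 32 (31.25%, against 37.4%) without CD87 positive library 1. The fitted difference was above 0 for 26 of the 32 genes, where 51% of all genes were. Its median was 0.30 on the log2 scale over the 32 genes and 0.01 over all genes. When the libraries were rescaled without the most abundant row, 22 of the 32 were above 0, with a median of 0.19 against -0.11 over all genes. Under quantile normalization 22 of the 32 were above 0 too, with a median of 0.16 against -0.01 over all genes. The distance between the medians was 0.28 as fitted, 0.29 after that rescaling and 0.16 after quantile normalization. That rescaling also set the libraries to a common total, and 14343 genes then passed the filter, against 12715 as fitted and under quantile normalization. The medians over all genes are thus over unlike sets of genes. A bulk level cannot tell fewer cells of a type from less RNA per cell.

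Both CD87 positive libraries lay above both CD87 negative libraries for 16 of the 32 genes, against 20.4% of all genes, and below both for 1 (Cdc25c), against 14.5%. The summed TPM of the 32 genes was 2087 and 2634 in the CD87 positive and 1598 and 2057 in the CD87 negative libraries, so the groups did not overlap, though CD87 positive library 1 and CD87 negative library 2 were close. Sums here were taken as deposited, from columns of unlike totals. Markers of macrophages moved with CD87 status. Their summed TPM over 14 genes was 374 and 281 in the CD87 positive against 15.9 and 11.7 in the CD87 negative libraries. Of the 14, 8 were at 0 in both CD87 negative libraries, Lyz2, Tyrobp, C1qa and C1qb among them. A gene at 0 there could pass the filter only by reaching 1 TPM in both CD87 positive libraries. All 8 that passed lay higher without overlap, but for those at 0 in the CD87 negative libraries the filter fixed this order. Of the 3 genes that limma called among all tested, 2 were of this list. C1qc, Ctss, Csf1r, Aif1 and Adgre1 did not pass and reached 1 TPM in CD87 positive library 1 only. Summed Sertoli cell markers (12 genes) were 106 and 50.5 TPM in the CD87 positive against 112 and 203 TPM in the CD87 negative libraries. Summed germ cell markers (10 genes) were 1106 and 1193 TPM against 1039 and 1101 TPM. The part of other cell types in the results on the 32 genes was not tested.

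**Figure D4:**
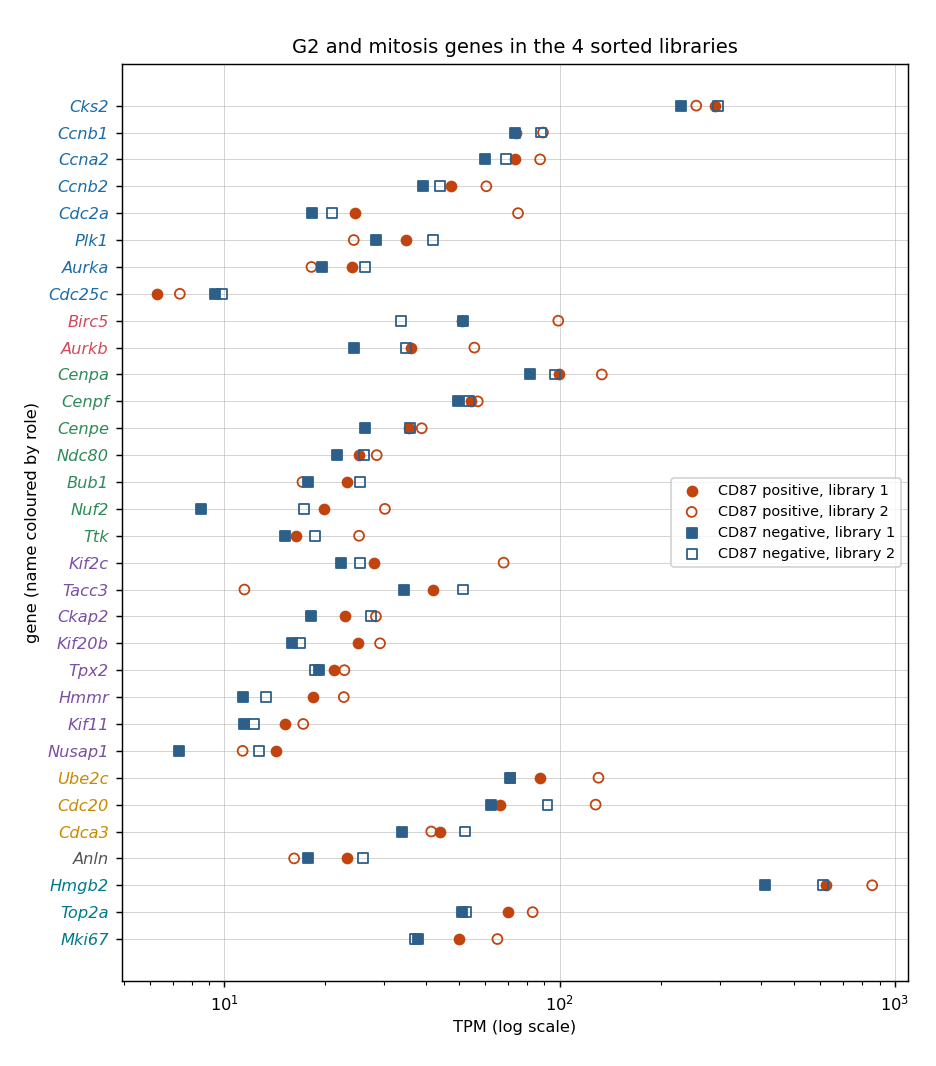
TPM of each of the 32 genes (horizontal axis, log scale) in the 2 CD87 positive libraries (circles) and the 2 CD87 negative libraries (squares), with gene names coloured by role. CD87 positive library 2 (open circles) lies far from the other 3 libraries for Cdc2a, Kif2c and Tacc3.

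Among the entry genes, Cdc2a had the largest difference of the set. It was at 24.6 and 75.1 TPM in the CD87 positive and 18.3 and 20.9 TPM in the CD87 negative libraries, a log2 difference of 1.10 ± 0.49 (SE, n = 2 each, limma adjusted p = 0.863). Only CD87 positive library 2 was far above the CD87 negative pair. Its partner Ccnb1 was at 74.2 and 89.2 TPM in CD87 positive and 73.5 and 87.7 TPM in CD87 negative libraries. The cyclin thus showed the same spread within each group, with a log2 difference of 0.02 whose interval ran from -0.59 to 0.63. The rows Ccnb2 (47.5 and 60.4 against 39.1 and 43.9 TPM) and Ccna2 (73.8 and 87.4 against 59.95 and 69.1 TPM) lay higher in both CD87 positive than in both CD87 negative libraries.

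The kinases Plk1 and Aurka, nearest to the score in single cells, did not separate the groups. Plk1 was at 34.7 and 24.3 TPM in CD87 positive and 28.3 and 42.0 TPM in CD87 negative libraries. Aurka was at 24.1 and 18.2 TPM in CD87 positive and 19.5 and 26.3 TPM in CD87 negative libraries. In each case the 2 groups overlapped. Cks2, at 291 and 256 TPM in CD87 positive and 230 and 296 TPM in CD87 negative libraries, overlapped as well. Cdc25c had the lowest mean TPM of the set and was the only gene below in both: 6.31 and 7.36 TPM in CD87 positive against 9.40 and 9.82 TPM in CD87 negative libraries, a log2 difference of -0.44 with an interval of -1.46 to 0.58.

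Of the passenger genes, Aurkb was at 36.1 and 55.7 TPM in CD87 positive and 24.4 and 34.9 TPM in CD87 negative libraries, without overlap. Birc5 was at 51.1 and 99.1 TPM in CD87 positive and 51.3 and 33.6 TPM in CD87 negative libraries, so that 1 library of each group was alike. Among kinetochore genes Nuf2 differed most, at 19.9 and 30.1 TPM in CD87 positive against 8.52 and 17.2 TPM in CD87 negative libraries, a log2 difference of 0.95 ± 0.44 (SE, n = 2 each, limma adjusted p = 0.863). Its partner Ndc80 was at 25.2 and 28.5 TPM in CD87 positive and 21.6 and 26.1 TPM in CD87 negative libraries, which overlap. Cenpa and Cenpf also lay higher without overlap, Cenpf by no more than 0.10 on the log2 scale, and Bub1, Ttk and Cenpe overlapped.

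The spindle group held both directions. Kif2c was at 27.9 and 68.1 TPM in CD87 positive and 22.2 and 25.3 TPM in CD87 negative libraries. Tacc3 was at 41.8 and 11.5 TPM in CD87 positive and 34.4 and 51.6 TPM in CD87 negative libraries, the most negative difference of the set at -0.90 ± 0.54 (SE, n = 2 each, limma adjusted p = 0.863). For both genes CD87 positive library 1 lay near the CD87 negative pair. Kif20b and Hmmr were more even within groups. Kif20b was at 24.96 and 29.1 TPM in CD87 positive against 15.9 and 16.8 TPM in CD87 negative libraries, and Hmmr at 18.4 and 22.7 TPM against 11.4 and 13.3 TPM. Their log2 differences were 0.69 each, with intervals of -0.08 to 1.45 and -0.16 to 1.53. Tpx2 and Kif11 also lay higher without overlap, by 0.21 and 0.42, while Nusap1 and Ckap2 overlapped.

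Ube2c was at 87.3 and 131 TPM in CD87 positive and 71 and 71.3 TPM in CD87 negative libraries. Cdc20, the activator it works with, was at 66.2 and 128 TPM in CD87 positive and 62.5 and 92.0 TPM in CD87 negative libraries, and overlapped. Cdca3 and Anln overlapped too, with log2 differences of 0.02 and -0.14. All 3 genes of chromosome structure and proliferation lay higher without overlap, where 20.4% of all genes did. The counts were 5 of 8 for spindle genes, 3 of 8 for entry genes and 3 of 7 for kinetochore genes. They were 1 of 2 for passenger genes, 1 of 3 for exit genes and 0 of 1 for cytokinesis. Roles this small cannot be told apart by such counts. Top2a was at 70.3 and 83.1 TPM in CD87 positive against 51.2 and 52.6 TPM in CD87 negative libraries, and Mki67 at 50.0 and 65.2 TPM against 37.9 and 37.1 TPM. Hmgb2, the most abundant of the 32 by mean TPM, was at 622 and 856 TPM in CD87 positive against 410 and 611 TPM in CD87 negative libraries. Their log2 differences were 0.55, 0.59 and 0.54, and each 95% interval included 0.

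**Figure D5:**
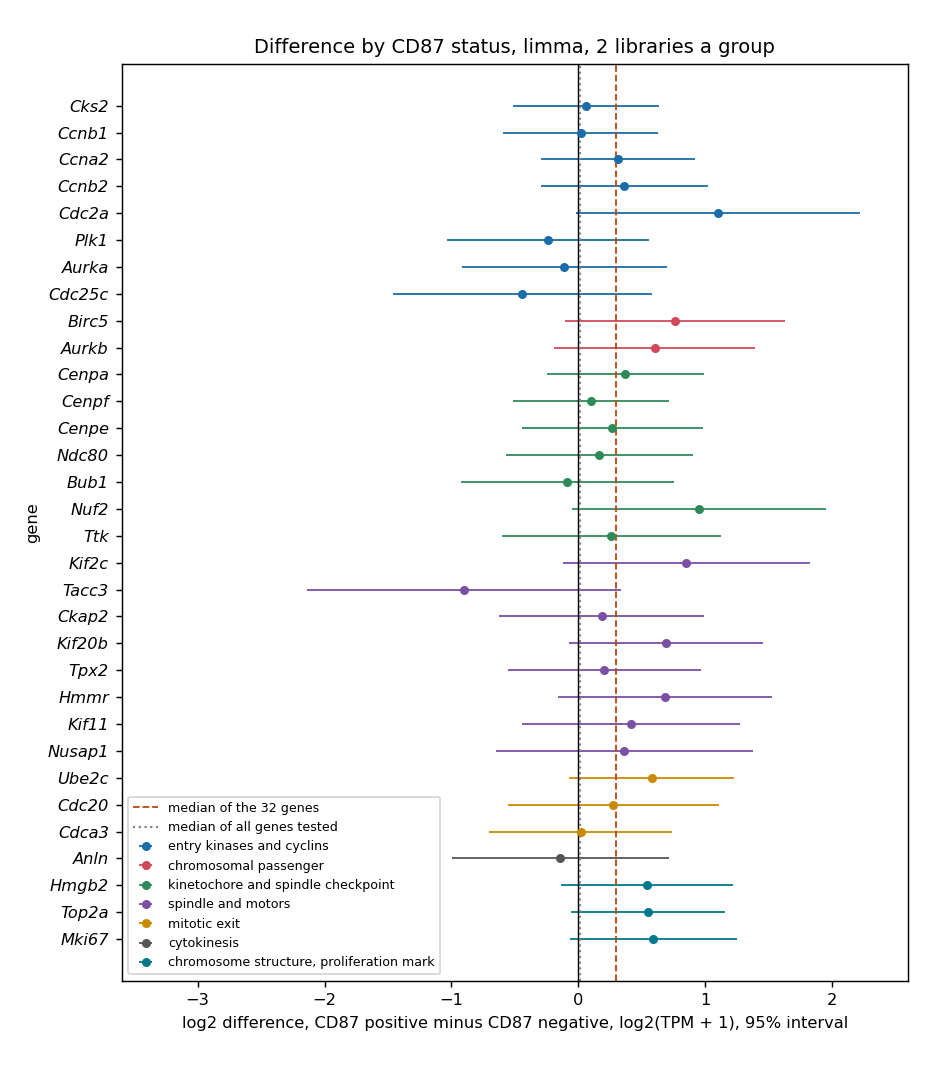
Log2 difference of each gene, CD87 positive minus CD87 negative, on the log2(TPM + 1) scale with its 95% interval from limma (horizontal axis), 2 libraries a group. Every interval includes 0, the median of the 32 genes is 0.30 and that of all genes tested is 0.01.

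A single library decided which genes were called. Without CD87 positive library 1, limma called 5 of the 32 genes (Cdc2a 1.89, Kif2c 1.48, Nuf2 1.24, Birc5 1.23 and Tacc3 -1.79 on the log2 scale, smallest adjusted p = 0.000298), which is 15.6% of them, and 2988 genes in all, which is 25.2% of the 11857 tested. The members' share was therefore below that of all genes. In that fit the lone CD87 positive library was taken to vary like the CD87 negative pair. Without CD87 positive library 2, none of the 32 was called and their median difference was 0.18, against 0.10 over all genes. The members stood farther from all genes with CD87 positive library 2 alone, the library with the shortest gene list, than with library 1 alone.

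Of 59 other G2 and mitosis genes, limma called 0 and put 4 at an unadjusted p under 0.05, all higher. Over all genes tested, 3.37% were higher and 1.58% lower at that p. Of the 59, 44 had a difference above 0 and 23 lay higher in CD87 positive libraries without overlap (median 0.32), where 51% of all genes were above 0 and 20.4% lay higher without overlap. Those with the smallest p in each direction were Ncaph, Cep55 and Incenp (1.10, 1.15 and 0.93) and Kif4, Cenpn and Fbxo5 (-0.76, -0.32 and -0.34). Ncaph, a condensin subunit, was at 25.7 and 26.9 TPM in CD87 positive against 12.95 and 10.6 TPM in CD87 negative libraries. Of the 17 transcription regulators, 9 were above 0 and 8 below (median 0.02), close to the share over all genes, and limma called 0, with 0 at an unadjusted p under 0.05. Rbbp4, E2f2 and Tfdp1 (0.54, 1.12 and 0.41) and Mybl2, E2f3 and Nfya (-0.92, -0.45 and -0.72) had the smallest p in each direction. Mybl2, the B-Myb activator of this programme, was at 19.9 and 7.6 TPM in CD87 positive against 20.8 and 28.6 TPM in CD87 negative libraries.

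The S phase genes had nearly the same median as the 32 genes in this comparison. Of 36, 26 were above 0 and 14 lay higher without overlap (median 0.29), again beside 51% and 20.4% of all genes. Limma called 0 of them and put 2 at an unadjusted p under 0.05, both higher, beside 3.37% of all genes higher and 1.58% lower. Prim1, Uhrf1 and Pcna (1.34, 0.62 and 0.50) and Ung, Cdc6 and Gins1 (-0.46, -0.37 and -0.67) had the smallest p in each direction. Prim1, the small primase subunit, was at 43.5 and 72.3 TPM in CD87 positive against 17.99 and 25.8 TPM in CD87 negative libraries. For the anaphase promoting complex 10 of 14 were above 0 (median 0.16), and for the cell cycle inhibitors 7 of 13 (median 0.25), against the same 51%, and limma called 0 in either list, with 0 at an unadjusted p under 0.05.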

How the data were processed

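Sorted cells were profiled by Smart-seq2 and single cells on a Fluidigm C1, both with Nextera XT libraries on an Illumina sequencer, per the labels' protocols. The authors deposited TPM values for the sorted libraries (Trim Galore, RSEM) and expected counts for the cells (Trim Galore, Salmon). The build was mm9, per the submitters' processing notes, and tool versions are not stated in the sources used here. The remaining 5 samples were not analysed here. In the single-cell data, 22 rows named as dates (at most 0.609% of a cell's counts) were left out. Its headers write P6 where the sample titles write P5.5.

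Sorted groups were compared with limma 3.58.1 (R 4.3.3) on log2(TPM + 1) with an intensity trend, two-sided, Benjamini-Hochberg at 0.05, over the 12715 genes that reached 1 TPM in 2 or more libraries. This scale understates changes of weakly expressed genes. With 2 libraries against 2, exact permutation cannot give p under 0.333. CPM in cells used column totals. No p-value was made from cells, and no doublet caller was run. The fit and the likeness measure were also run on simulated data. The outcome is not given here, and no statement above rests on it.

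The members, gene lists and tests were chosen with earlier results of these data known. Named were all 32 genes, the 3 smallest p-values in each direction for 3 lists, and the 15 highest and 5 lowest r in cells. Alternatives were other pseudocounts, filters, scalings and cuts, thinning, a replicate block and leaving out each library.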

Additional observations from a re-analysis of the deposited data

How the results depend on the processing

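The count of genes called between CD87 positive and negative libraries (3) was 1 with a pseudocount of 0.1, 1 without the filter, 1 when rescaled without the most abundant row, 0 without a trend and 130 with the replicate block, and ran from 10 to 2988 without 1 library. The count of the 32 genes called was 0 in every alternative run except without CD87 positive library 1, so that its range without 1 library was 0 to 5. Deviations of same-numbered libraries had a correlation of 0.07. With so few libraries this cannot show whether the replicate numbers pair the samples, so pairing stays unknown. With the block, limma called 130 genes and 0 of the 32 (their smallest adjusted p = 0.101). At an unadjusted p under 0.05 the 32 genes numbered 9 with the block, 10 without CD87 positive library 1, 2 or 3 when a CD87 negative library was left out, 1 with a pseudocount of 5 and 0 in the others. The median difference of the 32 genes was 0.16 under quantile normalization (all genes -0.01) and 0.17 to 0.47 without 1 library. The genes higher without overlap numbered 17 to 25 without 1 library. That order is easier to reach with fewer libraries, and its share over all genes was not taken there. These counts therefore cannot be set against the count from all libraries.

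Of 352 values of single genes under 11 alternatives, 322 kept direction and call, 5 became called and 25, of 11 genes, changed sign. Rescaling without the most abundant row gave Ccnb1 -0.093, Cks2 -0.048, Cenpf -0.0069 and Cdca3 -0.089, and quantile normalization gave -0.12, -0.12, -0.058 and -0.13. Without 1 library, the ranges were -0.11 to 0.15 for Ccnb1, -0.12 to 0.24 for Cks2, -0.52 to 0.036 for Plk1, -0.31 to 0.095 for Aurka, -0.33 to 0.16 for Bub1, -0.037 to 0.56 for Ttk, -0.10 to 0.47 for Ckap2, -0.19 to 0.75 for Cdc20, -0.28 to 0.32 for Cdca3 and -0.40 to 0.12 for Anln. The cause was not tested.

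The share of cells above the cut was 54.9% over all cells by the 2-means split (22.2%, 81.25%, 37.5% and 33.3% in clusters I to IV) and 45.1% by Plk1 and Aurka (22.2%, 62.5%, 29.2% and 50.0%). Of the 15 genes most like the score, 8 were among the 15 highest after thinning. On the gene's strand alone, CCAAT and CHR together stood in 35.7% of member promoters and 2.56% of all promoters, and each motif alone moved by less than its interval. Median scores by cluster moved by less than their spread, and 56 of 64 detection values by less than their interval. Depth of the sorted libraries is unknown, and 2 libraries a group limit every difference.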
